A study of Homo sapiens with 40 samples.

Results

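Metallothioneins are small cysteine-rich proteins that bind zinc and copper, and this report follows their genes through loss of NANOG, OCT4 or SOX2 in human embryonic stem cells. The members were every array probe whose platform annotation carries the symbol MT1A, MT1E, MT1F, MT1G, MT1H, MT1M, MT1X, MT2A or MT3. That gave 8 of the 9 genes, among 20046 genes with a probe on the array, and 10 probes of 47323. No probe carried the symbol MT1A. The family was selected on its levels, which were low in the NANOG knockdown on days 4 to 6, so that difference, the other comparisons of the late NANOG arrays and the changes over time in the NANOG and control arms are described below without a test. The OCT4 and SOX2 comparisons with control share the control arrays and were tested.

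The study used the human embryonic stem cell lines H1 and H9, grown without feeder cells on Matrigel in mTeSR medium and infected with lentivirus in polybrene. H1 cells received the control virus H1P or a knockdown virus that expresses a short hairpin RNA (shRNA) to NANOG, to OCT4 (the product of POU5F1) or to SOX2, and H9 cells received the OCT4 virus, with no H9 control. Each of these 5 arms was 1 time course with 1 array a day from day 0 to day 7, on 1-colour Illumina bead arrays, and 39 of the 40 arrays were used. The NANOG array of day 7 was left out, since its values were on another scale. Days stood in for replicates, so every p-value below is set by how days scatter within a window, and says nothing of the variation among separate cultures.

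Values by day are the deposited intensities, on a linear scale. Differences are on a log2 scale after background correction, and a call is an adjusted p under 0.05 from limma over all 24940 probes that passed the filter on low values. Levels above an intensity of 145 were taken as above background. The targeted genes were low in their arms: on the log2 scale NANOG stood at 6.66 ± 0.22 (SD, n = 3 days) in the late NANOG arm against 8.77 ± 0.25 (n = 4) in control, POU5F1 at 6.79 ± 0.29 in the OCT4 arm against 12.70 ± 0.13 (n = 4 each), and SOX2 at 10.16 ± 0.18 in the SOX2 arm against 12.16 ± 0.25 (n = 4 each). The arms were not losses of 1 factor each. In the late H1 OCT4 arm NANOG stood at 6.55 ± 0.25 and SOX2 at 8.61 ± 1.02 (n = 4 each). In the late NANOG arm POU5F1 stood at 11.52 ± 0.53 (n = 3). In the late SOX2 arm NANOG (8.77 ± 0.07) and POU5F1 (12.64 ± 0.13) were near control. All 8 measured pluripotency markers were above background on every control array.

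In mammals the metallothionein genes are switched on by zinc, cadmium and copper through MTF1, a zinc-finger factor that binds metal response elements in their promoters, and also by glucocorticoids and oxidative stress. MT2A and the MT1 genes are expressed in many tissues, MT3 mainly in brain, and MT4 in stratified squamous epithelium. In the RefSeq gene order of chromosome 16 the members lie in 1 cluster, in the order MT3, MT2A, MT1E, MT1M, MT1A, MT1F, MT1G, MT1H and MT1X. The MT1 genes are close paralogs, so a probe for 1 of them may also take up RNA of another.

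RefSeq promoter sequences (build GRCh38.p14, 250 bases before to 50 after the start) were at hand for 3 of the 9 members and are printed below. The windows were searched for the core letters of the metal response element. All are on the plus strand of chromosome 16: MT2A at chr16:56608334-56608633, MT1H at chr16:56669564-56669863 and MT1X at chr16:56682220-56682519. Capitals mark every match to the core of the metal response element, spelled TGCACNC or TGCGCNC, on either strand.
MT2A: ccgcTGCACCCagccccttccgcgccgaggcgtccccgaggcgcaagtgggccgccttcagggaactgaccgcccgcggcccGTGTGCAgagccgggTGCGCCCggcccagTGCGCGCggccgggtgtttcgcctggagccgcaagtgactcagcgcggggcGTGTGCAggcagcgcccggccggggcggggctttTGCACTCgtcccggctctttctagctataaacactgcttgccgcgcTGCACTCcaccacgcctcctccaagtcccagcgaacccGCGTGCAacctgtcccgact
MT1H: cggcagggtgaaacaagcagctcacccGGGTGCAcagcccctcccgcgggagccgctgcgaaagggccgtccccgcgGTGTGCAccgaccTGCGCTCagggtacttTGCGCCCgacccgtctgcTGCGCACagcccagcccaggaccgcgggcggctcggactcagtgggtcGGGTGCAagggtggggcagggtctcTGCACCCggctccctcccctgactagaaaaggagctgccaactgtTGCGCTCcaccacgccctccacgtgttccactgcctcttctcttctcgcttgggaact
MT1X: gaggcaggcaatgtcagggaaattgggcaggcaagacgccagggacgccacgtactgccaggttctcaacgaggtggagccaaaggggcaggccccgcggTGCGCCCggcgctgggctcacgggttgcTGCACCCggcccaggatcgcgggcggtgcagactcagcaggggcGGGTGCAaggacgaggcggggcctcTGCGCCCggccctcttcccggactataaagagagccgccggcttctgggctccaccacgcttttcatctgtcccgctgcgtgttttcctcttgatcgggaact
The MT2A window held 8 matches (6 of TGCACNC and 2 of TGCGCNC), the MT1H window 8 (4 and 4), and the MT1X window 4 (2 and 2), with 0 overlapping matches in each. Of 35116 promoter windows of this length, 29.6% held at least 1 match, 0.601% at least 4 and 0.0199% at least 8. MT1B and MT4, which are in the same cluster but not among the members, held 3 each, and 2.3% of all windows held at least 3. A match is a run of letters and not a shown binding site.

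Among the members, 6 probes were above background on all 39 arrays: MT1F, MT1G, MT1X, MT2A and the brighter probe of each of MT1E (ILMN_2173611) and MT1H (ILMN_2124802). The gene names MT1E and MT1H below mean these brighter probes. MT1M was above background on 24 arrays. The dimmer MT1H probe (ILMN_1683923) was above it on 13 arrays and the dimmer MT1E probe (ILMN_1718968) on 5. MT3 lay between 106 and 133 on every array and did not pass the filter, so 9 of the 10 probes were tested. The 4 other metallothionein genes with a probe (MT1B, MT1L, MT1IP and MT4) did not pass it either.

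The 6 bright probes ran in parallel over days. Over the 39 arrays, Pearson correlations between them ran from 0.67 to 0.98 with a median of 0.88 over 15 pairs, over the 31 H1 arrays from 0.65 to 0.99 with a median of 0.88, and over the 8 H9 arrays from 0.67 to 0.99 with a median of 0.93. Arrays of 1 arm follow each other in time, and paralogs can share signal, so these values are a description only. MT1G had the widest span among the members, from 272 on day 7 of the H1 OCT4 arm to 20170 on day 4 of the H9 OCT4 arm, a 74.2-fold range.

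**Figure D1:**
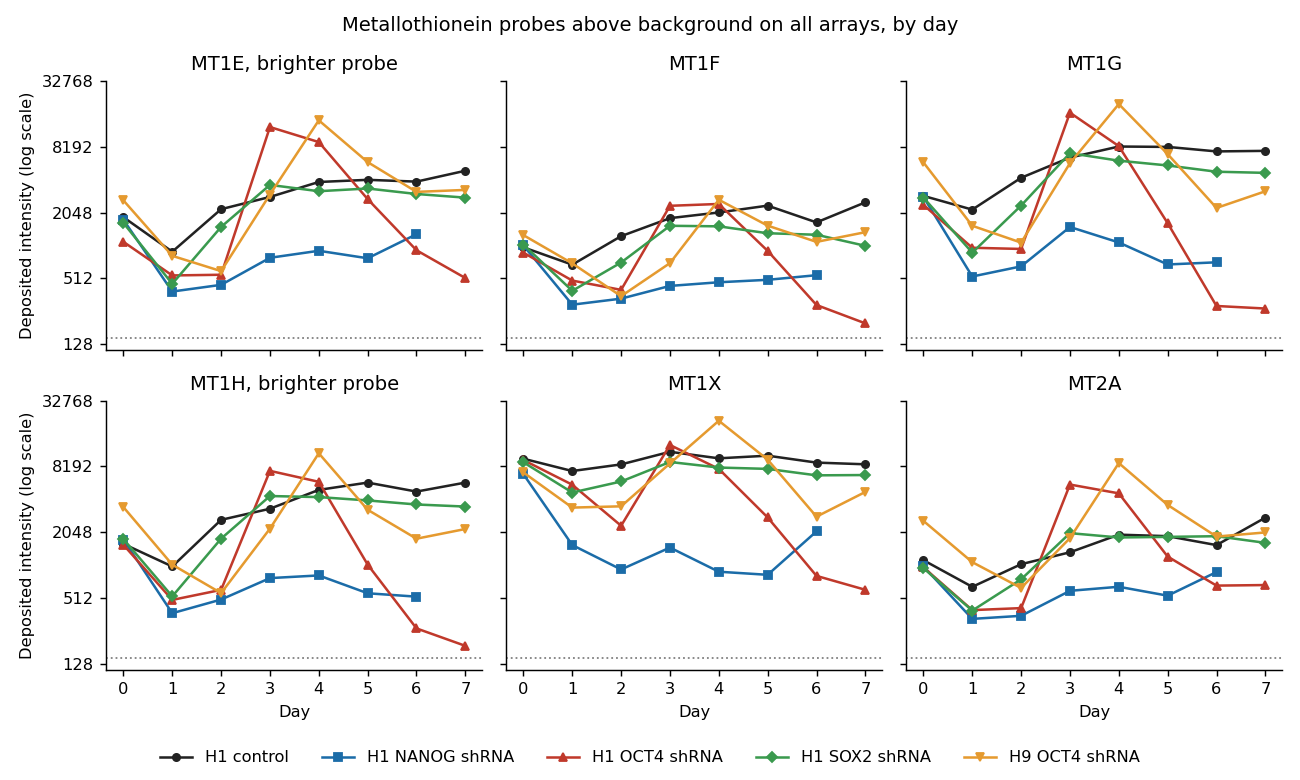
Deposited intensity (log axis) of the 6 metallothionein probes above background on all 39 arrays, by day, with 1 point for each array and 1 line for each arm; the dotted line is the background level of 145. The NANOG line lies under the control line from day 1 to day 6 in each panel, and the OCT4 lines rise to a peak on day 3 or 4 before falling.

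In control cells the family was lower on day 1 and higher late. MT1G, a metal-inducible member, stood at 2917, 2184, 4270, 6539, 8249, 8183, 7442 and 7529 on days 0 to 7 of the control arm. MT2A, the human MT2 gene, went from 1136 on day 0 to 648 on day 1 and 2784 on day 7. MT1X changed less in the control arm, between 7429 and 11137. All 6 bright probes had their lowest control value on day 1. Against days 0 and 1, 6 of 9 probes were at least 2-fold higher on days 4 to 7, with a median log2 difference of 1.27, while 0.0762% of all probes were that much higher; these control arrays entered the choice of the members, so nothing is read from that count.

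The dip on day 1 was seen in all 5 arms. From day 0 to day 1 the median log2 change of the 9 probes was -0.56 in control, -2.0 with NANOG shRNA, -1.09 with OCT4 shRNA, -1.41 with SOX2 shRNA and -1.08 in H9. On day 0 the metallothionein probes of the 3 knockdown arms had lain near control, with median differences of 0.04 (NANOG), -0.17 (OCT4) and -0.05 (SOX2). The targeted genes were already lower over days 0 and 1 (log2 mean ± SD, n = 2 days each). NANOG stood at 7.61 ± 0.27 in its arm against 9.08 ± 0.24 in control, and SOX2 at 9.92 ± 0.08 against 11.89 ± 0.18. POU5F1 stood at 11.65 ± 0.97 in the OCT4 arm against 12.60 ± 0.19. Days 0 and 1 are therefore no baseline from before the knockdowns. On day 1 (1 array for each arm), 6 of 9 probes were at least 2-fold under control with NANOG shRNA, beside 0.152% of all probes. With OCT4 and with SOX2 shRNA 2 of 9 were, beside 0.0601% and 0.0762%. On days 0 and 1 together 0 of 9 were called by limma in any of the 3 knockdowns against control. The unadjusted p was under 0.05 for 0 of 9 in each, beside 1014 (NANOG), 1510 (OCT4) and 1164 (SOX2) of all 24940 probes. The background of calls was 0.0% of all probes for NANOG, 0.00802% for OCT4 and 0.0% for SOX2. With so few calls in all, and unlike days joined, the lack of calls says little about the members.

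After day 1 the NANOG arm stayed low while control recovered. MT1G stood at 2853 on day 0 of the NANOG arm, then at 534, 661, 1515, 1094, 688 and 720 on days 1 to 6. MT1X went from 6954 on day 0 to 1563, 934, 1482, 891, 835 and 2084. Each of these values, day 0 among them, was below the lowest control value, 7429. MT2A went from 998 to 330, 352, 596, 649, 538 and 885. MT1E (1764 on day 0) lay between 389 and 1301 on days 1 to 6, MT1F (1026) between 295 and 549, and MT1H (1753) between 372 and 824. The 6 bright probes all had their highest NANOG-arm value on day 0, and 5 had their lowest on day 1.

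On days 4 to 6, the days behind the choice of the family, 7 of 9 probes were at least 2-fold lower with NANOG shRNA than in control, beside 0.854% of all probes, and the median log2 difference was -2.08. MT1G stood at 9.58 ± 0.39 against 12.95 ± 0.08 on the log2 scale (SD, n = 3 days each), a 10.34-fold difference. MT1H was 8.94-fold lower, MT1X 8.66-fold, MT1F 4.31-fold, MT1E 4.24-fold and MT2A 2.78-fold. MT1M stood at 154, 140 and 131 against 305, 263 and 303 in control; 1 of its 3 NANOG values was above background, so it was at least 2.45-fold lower, and it was the member nearest to the 2-fold mark on the inside. For these 7 every NANOG day lay under every control day, as it did for 14.6% of all probes. The next members, outside the mark and not near it, were the dimmer MT1H probe (1.14-fold lower) and the dimmer MT1E probe (1.11-fold higher).

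Days 2 and 3 were not used to choose the family, but they come from the same NANOG and control time courses as the days that were. The test on them is therefore not independent of the choice. In the mean of those days all 9 probes were lower with NANOG shRNA than in control, with a median log2 difference of -2.13. By day, the dimmer MT1H probe was 0.07 higher on day 2 and the dimmer MT1E probe 0.01 higher on day 3. MT1X fell by 3.11 on the log2 scale (SE 0.85, adjusted p = 0.0407 by limma), from 8541 and 11137 in control to 934 and 1482, and was the 1 member called. The background was 1.18% of all probes called lower and 2.46% in either direction. MT1G (4270 and 6539 in control, 661 and 1515 with NANOG shRNA) had a log2 difference of -2.47 with SE 1.19 and adjusted p = 0.319, and MT1H one of -2.36 with SE 1.11 and adjusted p = 0.303. With the day as a block 2 members were called lower, MT1X and MT1F (-2.13, adjusted p = 0.0303), beside 1.93% of all probes. When only the NANOG and control arms shared the estimate of spread, 6 of 9 were called lower by limma, beside 2.39% of all probes. MT1X then had adjusted p = 0.000873 and MT2A, with the highest p of the 6, 0.0425. That spread was taken over all days of both arms, so the late arrays behind the choice entered it. These 6 calls are thus not independent of the choice either. With 2 days in each group the MT1X call was lost when either day was left out of either arm. This comparison shares its control arrays with the ones below on the same days.

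Compared with the other knockdowns on days 4 to 6, again without a test, the NANOG arm was at least 2-fold under the SOX2 arm for 6 of 9 probes (1.02% of all probes), with a median log2 difference of -1.54. MT1G was 7.1-fold lower, MT1H 6.83-fold and MT1X 6.75-fold. Against the OCT4 arm 3 of 9 were at least 2-fold lower (2.94% of all probes) with a median of -0.91, and the days of both arms overlapped for all 9 probes, while 20.2% of all probes were lower on every day. Without day 4 that median was 0.03. Neuroectoderm markers moved with the NANOG arm: 5 of 7 were above background on all 3 late arrays and their summed intensity was 2518 to 4105, against 1088 to 1505 in control, with SOX1 and ZIC1 not above background on any of these arrays. Their part in the metallothionein levels was not tested. In bulk RNA fewer cells of a type and less RNA per cell cannot be told apart.

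**Figure D2:**
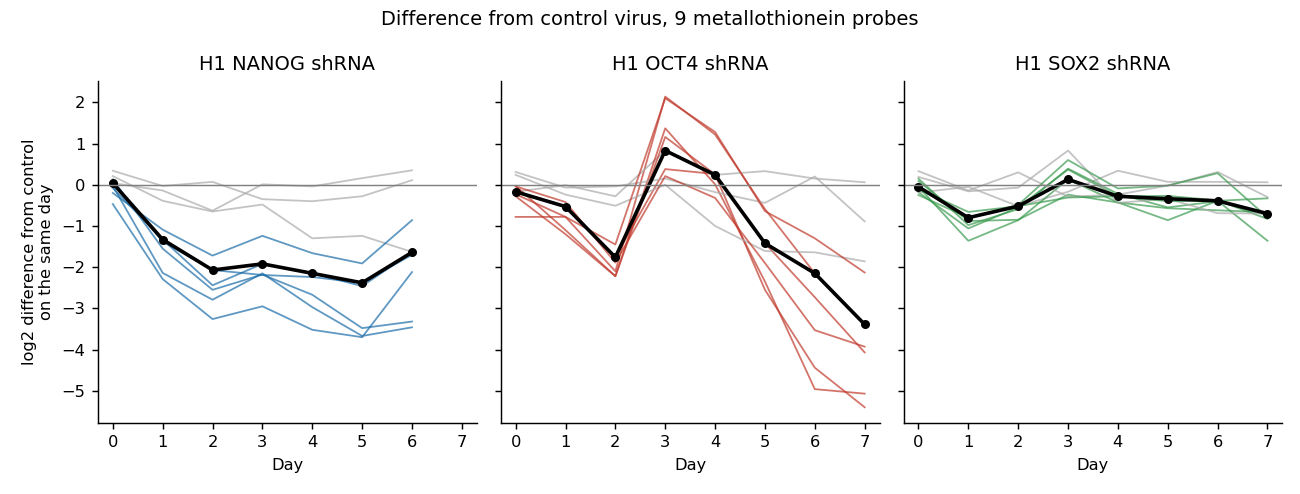
Log2 difference from the control array of the same day for the 9 tested metallothionein probes (thin lines; grey lines are the dimmer MT1E and MT1H probes and MT1M) and their median (black, points), by day and arm. The NANOG median stays between -2.38 and -1.33 from day 1, the OCT4 median goes from 0.83 on day 3 to -3.39 on day 7, and the SOX2 median stays between -0.80 and 0.13.

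In the H1 OCT4 arm the family peaked on day 3 and was low by days 6 and 7. MT1G stood at 2414, 978 and 954 on days 0 to 2, reached 16821 on day 3, and then went to 8320, 1642, 287 and 272 on days 4 to 7. MT1E went from 554 on day 2 to 12434 on day 3 and 517 on day 7, and MT1H from 608 to 7456 and 187. MT2A went from 414 to 5589 and 673. From day 2 to day 3 the median log2 change of the 9 probes was 2.72, and 6 of 9 were at least 2-fold higher on day 3, beside 0.73% of all probes. Of the 6 bright probes 5 had their highest OCT4-arm value on day 3, and MT1F had 2367 on day 3 and 2461 on day 4. Each point here is 1 array, so the step from day to day has no replicate.

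Set against the control array of the same day, the OCT4 arm was lower on day 2 (median log2 difference -1.76), higher on day 3 (0.83, 4 of 9 at least 2-fold higher, beside 1.62% of all probes), near control on day 4 (0.24), and lower on days 5, 6 and 7 (-1.42, -2.15 and -3.39). On days 6 and 7, 7 of 9 probes were at least 2-fold under control, beside 4.81% and 5.04% of all probes. Over days 2 and 3, 0 of 9 members were called by limma, beside 3.77% of all probes. An unadjusted p under 0.05 was found for 0 of 9, beside 3880 of all 24940 probes. Without the OCT4 array of day 2, 1 was called, the dimmer MT1E probe (log2 difference 0.63, adjusted p = 0.042), beside 3.30% of all probes called higher.

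Over days 4 to 7 the OCT4 arm was lower than control for 8 of 9 probes, with a median log2 difference of -1.53 against -0.01 for all probes. 5 members were called lower, beside 20.1% of all probes called lower and 39.3% in either direction. These tests share the control arrays that entered the choice of the members. MT1G fell by 3.09 on the log2 scale (SE 0.84, adjusted p = 0.00338), MT1H fell by 3.03 (SE 0.79, adjusted p = 0.00212), MT1X fell by 2.42 (SE 0.60, adjusted p = 0.00133) and MT1F fell by 1.99 (SE 0.56, adjusted p = 0.00459). MT1M, with 178, 120, 131 and 116 against 305, 263, 303 and 289 in control, fell by 1.53 (SE 0.28, adjusted p = 3.47e-05), and 1 of its 4 OCT4 values was above background. MT1X and MT1M were lower on every day, as were 17.3% of all probes, while MT1F, MT1G and MT1H overlapped between the arms through day 4. With day 7 left out of all arms MT1F was not called (-1.30, adjusted p = 0.0984), and with day 6 left out MT1G was not (-2.47, adjusted p = 0.051).

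MT1E and MT2A did not pass the test. MT1E stood at 9059, 2725, 928 and 517 against 3909, 4090, 3939 and 4953 in control, a log2 difference of -1.23 (SE 0.75, adjusted p = 0.204). MT2A stood at 4642, 1226, 665 and 673 against 1945, 1884, 1561 and 2784, a log2 difference of -0.70 (SE 0.62, adjusted p = 0.407). Day 4 of the OCT4 arm was above all 4 control days for both genes, and days 6 and 7 were below them. Without the OCT4 array of day 4, MT1E was called lower (-2.01, adjusted p = 0.0243). The share of all probes called without that array is not given here, so this call is not weighed.

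The late window therefore joins unlike days. It was also split in the middle, and since the split was chosen after the values by day were seen, its differences are a description with no test. On days 4 and 5 the median log2 difference of the 9 probes was -0.58, with MT1G at -1.17 (SE 0.93), MT1H at -1.15 (SE 0.89), MT1X at -1.11 (SE 0.59) and MT2A at 0.32 (SE 0.78). On days 6 and 7 the median was -2.77. MT1G was then 32.41-fold lower (log2 difference -5.02, SE 0.93), MT1H 30.19-fold (-4.92, SE 0.89), MT1X 13.24-fold (-3.73, SE 0.59), MT1F 10.56-fold (-3.40, SE 0.62), MT1E 6.82-fold (-2.77, SE 0.91) and MT2A 3.28-fold. MT1M was not above background on either OCT4 array of days 6 and 7 and was at least 2.58-fold lower.

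When the difference on days 0 and 1 was subtracted from that of days 4 to 7, 1 member was called lower, MT1M, beside 9.43% of all probes. The other log2 differences were then -2.47 for MT1H (adjusted p = 0.231), -2.35 for MT1G (adjusted p = 0.299), -2.19 for MT1X (adjusted p = 0.15) and -1.64 for MT1F (adjusted p = 0.273).

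**Figure D3:**
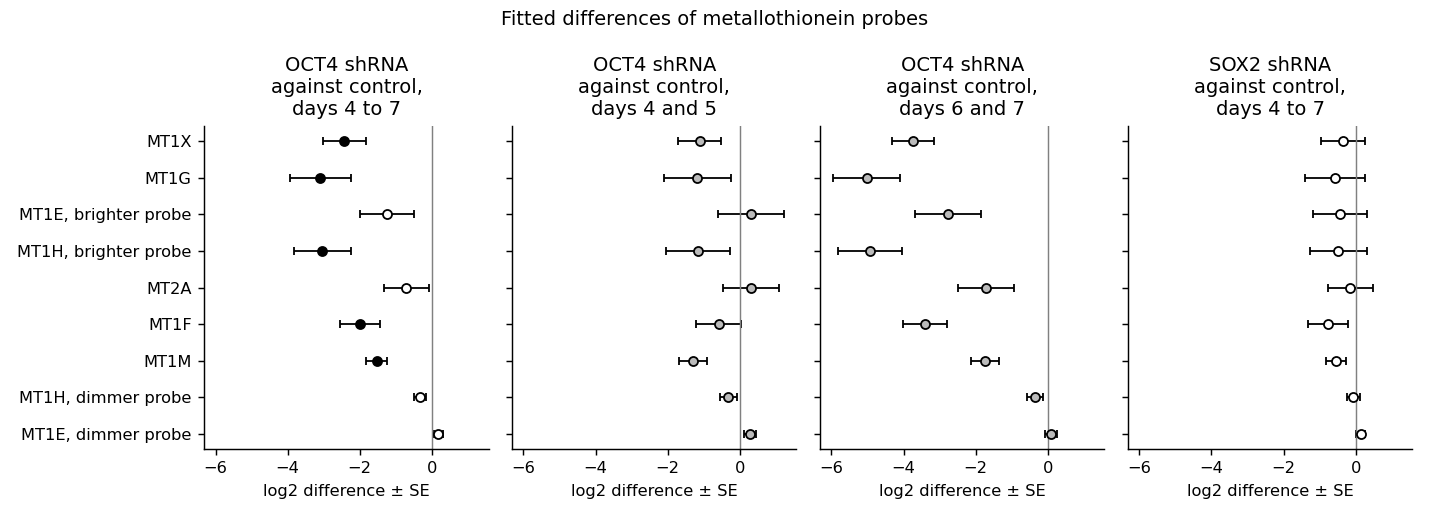
Fitted log2 difference from control (x axis, ± SE) of each tested metallothionein probe for the OCT4 arm on days 4 to 7, on days 4 and 5 and on days 6 and 7, and for the SOX2 arm on days 4 to 7; black points have an adjusted p under 0.05 and white ones do not, and the split windows, chosen after the values were seen, are in grey with no test. The OCT4 panel of days 4 to 7 has 5 black points and the SOX2 panel 0, and MT1G lies at -1.17 on days 4 and 5 and at -5.02 on days 6 and 7.

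Markers of other cell types moved with the late OCT4 arm. Summed intensity of the trophoblast and amnion markers was 26610 to 39130 on days 4 to 7 against 998 to 1084 in control, with 6 of 7 above background on all 4 arrays, while HAND1, GATA3 and CGA were not above it on any late control array. Fibroblast markers summed to 6514 to 28032 against 5908 to 8346, with DCN, POSTN and FAP not above background on any array of either. The pluripotency markers summed to 8803 to 24705 against 40246 to 45983. The part of these cells in the metallothionein values was not tested.

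With SOX2 shRNA the family lay a little under control in value, and no probe was called. MT1G stood at 6122, 5536, 4852 and 4737 on days 4 to 7 with SOX2 shRNA against 8249, 8183, 7442 and 7529 in control, all 4 under the lowest control day, and the log2 difference was -0.57 with SE 0.84 (adjusted p = 0.808). MT1F had -0.76 (SE 0.56, adjusted p = 0.542), MT1M -0.54 (SE 0.28, adjusted p = 0.315), MT1X -0.35 (SE 0.60, adjusted p = 0.841) and MT2A -0.15 (SE 0.62, adjusted p = 0.941). In all, 8 of 9 probes were lower with a median of -0.44, and 0 were called by limma, beside 5.89% of all probes. The unadjusted p was under 0.05 for 0 of 9, beside 4394 of all 24940 probes. With the day as a block MT1M alone was called (-0.54, adjusted p = 0.0121). The share of all probes called in that fit is not given here, so nothing is read from this call. Like MT1G, MT1E, MT1F, MT1H, MT1M and MT1X lay under every late control day, while MT2A and both dimmer probes overlapped. The share of all probes doing so was not worked out, so nothing is read from this. For each of the 6 bright probes a level 2-fold under control lay within 2 SE of the fitted difference, so the fit does not show that SOX2 shRNA left them unchanged. On days 2 and 3, 0 of 9 were called, beside 0.237% of all probes. An unadjusted p under 0.05 on those days was found for 0 of 9, beside 1938 of all 24940 probes.

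Within the SOX2 arm the 6 bright probes were lowest on day 1 and highest on day 3. MT1H went from 530 on day 1 to 4388 on day 3 and 3514 on day 7. SOX2 itself was already low on days 0 and 1 of this arm, at 9.92 ± 0.08 against 10.16 ± 0.18 on days 4 to 7 (log2, SD). The change between these windows is thus not one from before to after SOX2 loss. Days 4 to 7 were set against days 0 and 1 with the spread shared by all arms. By limma 0 of 9 were called, beside 5.40% of all probes, and the median log2 difference was 1.07. An unadjusted p under 0.05 was found for 3 of 9, beside 4686 of all 24940 probes. With only the SOX2 arm's own spread 5 of 9 were called higher, beside 4.91% of all probes: MT1H (2.07, adjusted p = 0.000745), MT1E (1.92, adjusted p = 0.00173), MT1G (1.79, adjusted p = 0.00308), MT2A (1.65, adjusted p = 0.00201) and MT1F (1.07, adjusted p = 0.0307). MT1X, which also changed least in control, had 0.18 (adjusted p = 0.652).

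Direct comparison of OCT4 with SOX2 shRNA on days 4 to 7 sets no control or NANOG array against another, though all arms share the estimate of spread. 4 of 9 members were called lower with OCT4 shRNA: MT1H fell by 2.56 on the log2 scale (SE 0.79, adjusted p = 0.00912), MT1G fell by 2.52 (SE 0.84, adjusted p = 0.0166), MT1X fell by 2.07 (SE 0.60, adjusted p = 0.00569) and MT1M fell by 0.98 (SE 0.28, adjusted p = 0.00481). The background was 20.3% of all probes called lower and 39.3% in either direction. MT1F was called with the day as a block (-1.23, adjusted p = 0.0156) and not without it (adjusted p = 0.0837). The share of all probes called with the block is not given here, so this call is not weighed. Without the OCT4 array of day 6 or of day 7, 2 members were called lower, beside 18.2% and 18.7% of all probes.

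In H9 cells with the OCT4 virus the peak came 1 day later, and the levels of day 7 were higher than in H1. MT1G stood at 5903, 1554, 1090 and 5807 on days 0 to 3, 20170 on day 4, and 7033, 2263 and 3214 on days 5 to 7. MT1X went from 3533 on day 2 to 21417 on day 4 and 4783 on day 7, and MT2A from 633 to 8783 and 2038. All 6 bright probes were highest on day 4, where 5 of 6 had peaked on day 3 in H1. On day 7 the H9 values of the 6 bright probes were above those of H1: 3214 against 272 for MT1G, 4783 against 609 for MT1X, 3307 against 517 for MT1E, 2191 against 187 for MT1H, 1358 against 199 for MT1F and 2038 against 673 for MT2A. On the log2 scale POU5F1 stood at 11.69 ± 0.22 on days 0 and 1 (SD, n = 2) and 9.33 ± 0.66 on days 4 to 7 (n = 4) in H9, beside 11.65 ± 0.97 and 6.79 ± 0.29 in H1. Late SOX2 stood at 12.86 ± 0.12 in H9 beside 8.61 ± 1.02 in H1, and late NANOG at 8.49 ± 0.31 beside 6.55 ± 0.25. In H9 the late trophoblast and amnion marker sum was 915 to 1025, with HAND1, GATA3, TFAP2A, KRT7, CGA and ISL1 not above background on any late array, and the neuroectoderm sum was 1734 to 3458. The part of these differences between the lines in the metallothionein values was not tested, and H9 had no control virus.

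Taking days 4 to 7 against days 0 and 1, 0 of 9 members were called in H9, beside 22.2% of all probes. The median was 0.77. At an unadjusted p under 0.05 by limma 1 of 9 passed, beside 8211 of all 24940 probes. In H1 the same change was called for MT1X, which fell by 2.05 on the log2 scale (adjusted p = 0.0286), beside 34.3% of all probes called and 17.2% called lower; the call was lost without day 0, day 1, day 6 or day 7 of that arm, with differences of -1.67, -2.42, -1.65 and -1.50 and adjusted p from 0.0602 to 0.226. The H1 change differed between the earlier and later of these days, in the split chosen after the values were seen and given with no test. On days 4 and 5 the mean lay above that of days 0 and 1 for MT1E (log2 difference 2.76), MT2A (2.03), MT1H (1.55), MT1G (1.29) and MT1F (1.26) and under it for MT1X (-0.64). On days 6 and 7 it lay under it for MT1X (-3.45), MT1G (-2.69), MT1H (-2.24), MT1F (-1.67) and MT1E (-0.18) and above it for MT2A (0.12).

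The difference between the lines in this change was called for 0 of 9 members, beside 23.4% of all probes. For 1 of 9 the unadjusted p was under 0.05 by limma, beside 8516 of all 24940 probes. MT1X came nearest, with a change 2.59 higher in H9 on the log2 scale (adjusted p = 0.068). When the day was a block MT1X was called (adjusted p = 0.0174) together with MT1M (0.78, adjusted p = 0.0151). It was called alone without the H1 array of day 4 (3.31, adjusted p = 0.00673) or the H9 array of day 6 (3.04, adjusted p = 0.0291). Shares of all probes called in these fits are not given here, so nothing is read from these calls.

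Of the zinc exporters of the SLC30 family, which move zinc out of the cytosol, 6 of 10 were measured. With OCT4 shRNA on days 4 to 7, SLC30A3 (-1.87, adjusted p = 5.3e-10) and SLC30A5 (-0.37, adjusted p = 0.0227) fell and SLC30A6 (0.32, adjusted p = 0.0324) rose; SLC30A1, the exporter that MTF1 induces, was not called (-0.29, adjusted p = 0.282). Of 10 measured importers of the SLC39 family 3 fell, SLC39A10 (-0.90, adjusted p = 3.4e-07), SLC39A14 (-0.64, adjusted p = 7.87e-05) and SLC39A11 (-0.39, adjusted p = 0.0124), and 0 rose. MTF1 itself rose (0.49, adjusted p = 0.00327), and of the 10 genes in the list of MTF1 and its other targets 3 rose and 3 fell, with NDRG1 (2.40) and CSRP1 (2.29) changing most. The background for these calls was 20.1% of all probes called lower and 39.3% in either direction. The medians of these 3 lists were -0.12, -0.04 and -0.21, against -1.53 for the metallothionein probes and -0.01 for all probes.

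The other lists held calls in both directions with OCT4 shRNA, in a comparison that called 39.3% of all probes. Copper-handling genes had 5 higher and 5 lower of 13, with STEAP2, a metalloreductase, lower (-1.72) and COMMD1 (1.16) and the copper exporter ATP7B (0.93) higher. The NRF2 oxidative stress list had 1 higher, NFE2L2 itself (0.74), and 3 lower of 13, TXNRD1 (-0.82), PRDX1 (-0.48) and GCLC (-0.36). The heat shock list had 6 higher and 2 lower of 14, with the co-chaperone BAG3 (1.17), HSPA1A (0.67) and DNAJB1 (0.63) changing most. The glucocorticoid list had 3 higher and 2 lower of 8: CEBPD (2.46), TSC22D3 (1.12), DUSP1 (0.62), FKBP5 (-1.09) and KLF9 (-0.70).

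With SOX2 shRNA on days 4 to 7 the called genes of these lists were SLC30A3 (-1.02, adjusted p = 0.000502), SLC30A9 (-0.37, adjusted p = 0.0121) and the copper chaperone ATOX1 (0.56, adjusted p = 0.00176). With OCT4 shRNA on days 2 and 3 they were the importers SLC39A10 (-0.65, adjusted p = 0.029) and SLC39A14 (-0.64, adjusted p = 0.0334), the cystine transporter SLC7A11 (1.34, adjusted p = 0.000134), the small heat shock protein gene CRYAB (0.85, adjusted p = 0.00171) and SGK1 (-0.80, adjusted p = 0.0312). With NANOG shRNA on days 2 and 3 they were the importer SLC39A3 (0.86, adjusted p = 0.00352) and the kinase SGK1 (-0.81, adjusted p = 0.0373). The background of these 3 comparisons was 5.89% (SOX2), 3.77% (OCT4) and 2.46% (NANOG) of all probes called. In the late NANOG arm, given as description, list medians were -0.21 for zinc exporters, 0.00 for importers and -0.14 for MTF1 and its targets, where SLC30A1 had -0.26 and MTF1 0.41.

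**Figure D4:**
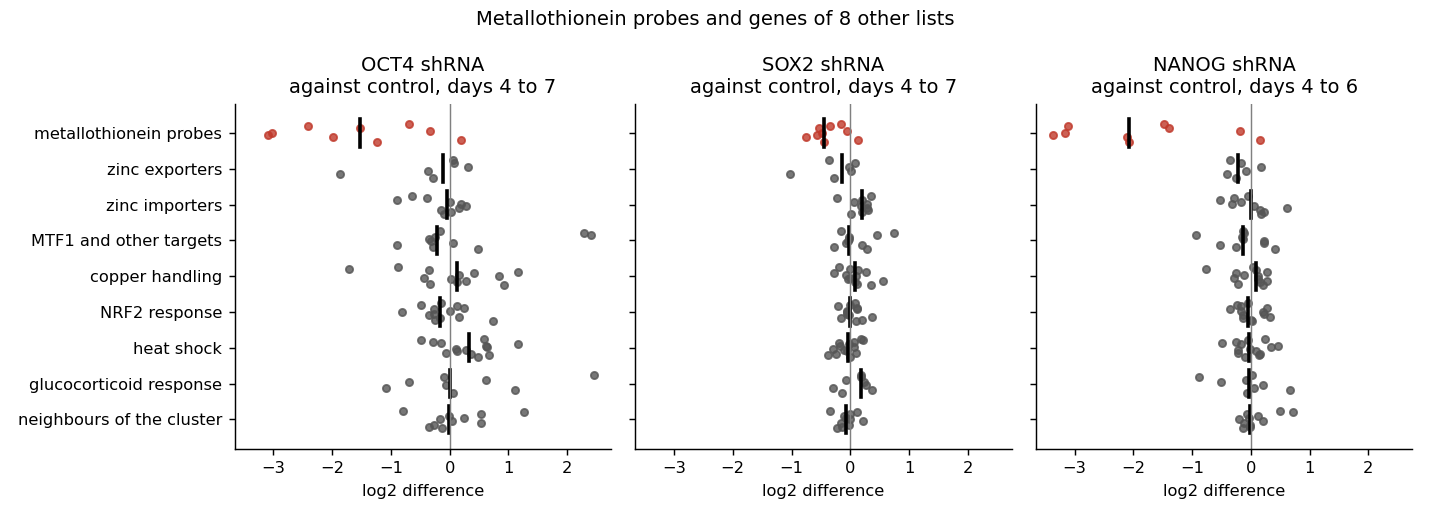
Log2 difference from control of the 9 tested metallothionein probes (red) and of the measured genes of 8 other lists (grey), with 1 point for each probe or gene and a black bar at each list's median, for the late windows of the OCT4, SOX2 and NANOG arms. The metallothionein medians are -1.53, -0.44 and -2.08, and the medians of the other lists lie between -0.21 and 0.32.

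Genes beside the cluster on chromosome 16 were compared as the nearest 10 protein-coding genes on each side, of which 11 were measured. With OCT4 shRNA on days 4 to 7 ARL2BP (1.26, adjusted p = 5.39e-09), RSPRY1 (0.54, adjusted p = 8.54e-06) and OGFOD1 (0.53, adjusted p = 0.000745) rose, and PLLP (-0.80, adjusted p = 0.000154) and GNAO1 (-0.36, adjusted p = 0.0117) fell. BBS2, next to the cluster on the MT3 side apart from MT4, and NUP93, next to MT1X, were not called. The OCT4 comparison called 39.3% of all probes, so these calls are not read as a result about the neighbours. With SOX2 shRNA 0 of 11 were called, beside 5.89% of all probes. The list median was -0.02 in the OCT4 arm, -0.07 in the SOX2 arm and -0.02 in the late NANOG arm.

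The genes whose levels ran most like the mean of the scaled metallothionein probes, among 13537 others, were METTL27 (Pearson r = 0.76), MACROD1 (0.73), CACNA1F (0.72), GEMIN8 (0.71) and TMEM187 (0.71) over the 39 arrays. Over the 31 H1 arrays they were TMEM256 (0.85), MAT2B (0.81), STAG2 (0.81), LRIG2 (0.81) and THNSL1 (0.80). The most opposite were PIEZO2 (-0.76), CTXN1 (-0.75) and ITGA5 (-0.75) over 39 arrays, and STK40 (-0.89), IL4R (-0.85) and RPS6KA2 (-0.84) over the H1 arrays. None of these genes appears in both sets, and CACNA1F was above background on 11 of the 39 arrays. STK40 ranged from 429 to 1429 in intensity. These are descriptions across arrays that share arms and days.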

How the data were processed

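RNA of 40 samples was measured on 1-colour Illumina bead arrays. The authors deposited linear probe intensities, and the software is not given in the sources used here. Judged by their values, the deposited intensity columns were quantile normalized (at least 98.4% of values in each column occur in the first) and not background subtracted (lowest value 91). The number of arrays, 1 for each arm and day, limits the precision. The members and gene lists were chosen with earlier results of these data known.

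In the H9 columns values stood 2 rows early after a break. Mean H9 and H1 levels correlated at 0.987 before it, 0.224 after it and 0.99 once moved, so they were moved and 30 probes around the break left out. Every H9 metallothionein value rests on this repair. The NANOG array of day 7 (median 6.8) was left out. A further table's 80 value columns match no label and were not used.

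Intensities were corrected by normexp with offset 50 and taken to log2. A probe passed when above 145 on at least 4 arrays, and 24940 passed. That level was an estimate of the 99th percentile of 437 olfactory receptor probes, set after the files were seen. It was worked out from their median and median absolute deviation, as for a normal distribution, and not read off the values. limma 3.58.1 in R 4.3.3 fitted arm by window of days (0 and 1, 2 and 3, 4 to 7) over 39 arrays, with Benjamini-Hochberg adjustment over all passing probes. The planned detection filter needed the unmatched columns, so this filter replaced it. The code was tested on simulated data. For each list, the best probe of a gene was the passing one with the highest mean, and up to 3 called genes with the largest difference are named, or all where 5 or fewer were called. The labels give the day, so arrays of a day pair across arms; 30 of 56 same-day correlations of deviations were above 0.1 (median 0.11, from -0.13 to 0.36). Alternatives changed background correction, filter, spread, windows, day block and left out arrays.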

Additional observations from a re-analysis of the deposited data

How the results depend on the processing

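The OCT4 difference on days 4 to 7 (5 members called) gave 1 call with days 4 and 5 alone and 1 with the difference of days 0 and 1 subtracted, and 4 to 6 when arrays were left out. OCT4 against SOX2 (4) gave 0 under the same 2 settings, 5 with the replicate block by day and 1 to 5 when arrays were left out. SOX2 against control (0) gave 1 with the replicate block by day. NANOG on days 2 and 3 (1) gave 0 without background correction, with offset 16 or without a filter, 2 with the block or array weights, 6 with only the arms compared, and 0 to 1 when arrays were left out; OCT4 on those days (0) gave 0 to 1. The H1 OCT4 change over time (1, lower) gave 0 with only that arm and 0 to 1 when arrays were left out. For this change the median log2 difference of the 9 probes was 1.26 with days 4 and 5 and -0.71 with days 6 and 7. The SOX2 change (0) gave 5 with only that arm, and the H9 change (0) gave 1 with days 4 and 5. The difference between the lines (0) gave 2 with the block, 1 with days 5 to 7 or days 6 and 7, and 0 to 1 when arrays were left out. The windows of days 4 and 5 and of days 6 and 7 were chosen after seeing the data, so their counts and medians are a description only. Shares of all probes called are given above for only some of these settings. No count in this paragraph is therefore read against a background. The block changed no other count; changes over time within 1 arm could not be fitted with it, since the day fixes the window.

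Medians of the described differences moved to -1.78 without a filter for NANOG against control and to -1.77 with genes in place of probes for NANOG against SOX2. When arrays were left out they ran from -2.31 to -1.89 against control, from -1.93 to 0.03 against OCT4, from -1.74 to -1.50 against SOX2, from -0.94 to 0.66 for the NANOG change over time and from 0.84 to 1.70 for the control change. Of 3075 single-probe differences under the alternatives, 2985 kept their side of the threshold, 48 lost it, 42 gained it and 0 called ones turned sign. The causes of these changes were not tested. Signal over background limits MT1M, MT3 and the dimmer MT1E and MT1H probes, and 1 array a day limits all of it.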

Other observations

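On day 0, the first day sampled, line H9 and line H1 had unlike levels. MT1G stood at 5903 in H9 against 2414 to 2917 in the 4 H1 arms, MT2A at 2599 against 961 to 1136, and MT1H at 3474 against 1571 to 1772. MT1X stood at 7207 in H9, inside the H1 range of 6954 to 9628. These are 1 array for H9 and 4 for H1 and no test was made.

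Dixon's criterion was applied to days 4 to 7 of each tested probe in the 4 arms with all these days, and in 0 of these 36 groups did a day stand apart.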
